A study of Xenopus tropicalis with 18 samples.

Results

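In the intestine of Xenopus tropicalis tadpoles, 456 of 9867 counted regions carried peaks of thyroid hormone receptor (TR) signal both in TRα knockout animals given hormone and in wild-type animals without it, but not in TRβ knockout or wild-type animals given hormone. A member had to be overlapped by a peak in at least 2 of 3 libraries of TRαKO with T3 and of untreated wild type, and in fewer than 2 of 3 libraries of TRβKO with T3 and of wild type with T3. Peak calls in those 12 libraries therefore chose the members. Peaks in untreated TRαKO and untreated TRβKO took no part in the choice, and the difference between these 2 groups is the comparison that was tested. Leaving out 1 library of a group that had to have peaks made the rule ask for peaks in both others. The number of members could then only fall. It was 311, 204 and 245 without replicates 1, 2 and 3 of TRαKO with T3. For untreated wild type it was 359, 256 and 287.

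TRα and TRβ are nuclear receptors that sit on DNA with and without their ligand, mostly paired with the retinoid X receptor. Without thyroid hormone (T3) they recruit corepressors, and with T3 they recruit coactivators to the same elements. In the tadpole intestine T3 drives metamorphosis, in which most of the larval epithelium dies and an adult epithelium forms from stem cells. Classical direct targets, such as the TRβ gene itself, are bound by TR in this tissue and respond to T3 within hours.

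Signal was measured by chromatin immunoprecipitation with an antibody to TR followed by sequencing, on whole intestine at stage 54. The 6 groups of 3 libraries were TRαKO (named TRαLKO in the series description) with T3, TRαKO untreated, TRβKO with T3, TRβKO untreated, wild type with T3 and wild type untreated, T3 being given at 10 nM for 18 h. The libraries are described as biological replicates from different tadpoles, and the sources used here do not say whether tadpoles were pooled or which cells lack the receptors. Input or mock libraries were not analysed here, and the assay gives no transcript levels by which the tissue label could be checked. Whole intestine mixes epithelium, mesenchyme, muscle and other cells, so fewer cells with a bound site and less binding per cell cannot be told apart.

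Depth differed between the groups. Tags left after duplicates were removed numbered 6.03 to 8.02 M (1 M is 1000000 tags) per library in TRαKO with T3, 7.49 to 9.28 M in untreated TRαKO, 2.76 to 3.28 M in TRβKO with T3, 5.22 to 5.80 M in untreated TRβKO, 2.29 to 2.53 M in wild type with T3 and 12.4 to 17.1 M in untreated wild type. The 2 groups that had to have peaks were thus sequenced more deeply than the 2 that had to lack them. Before duplicates were removed, untreated wild type had 14.0, 17.6 and 12.7 M tags and wild type with T3 3.21, 3.22 and 2.91 M. The fragment length given with the peaks was 275, 255 and 283 bp in untreated wild type, against 295 to 298 bp in every other group. The part of these differences in the choice of members was not tested. The variance between replicates was 1.94 to 2.19 times that of counting error. Levels below are in CPM, reads per M of these tags, shown as mean ± SD (n = 3) or for replicates 1 to 3 in order.

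Members held reads in all 6 groups, also in those without peaks. The median member had 3.12, 3.53 and 3.65 CPM in the 3 libraries of TRαKO with T3 and 2.31, 2.05 and 2.14 CPM in untreated TRαKO. In TRβKO it had 2.08, 1.83 and 2.18 CPM with T3 and 2.38, 2.93 and 2.49 CPM untreated. In wild type it had 2.61, 2.77 and 3.06 CPM with T3, where the rule asked for no peaks, and 2.41, 2.45 and 2.83 CPM untreated, where it asked for peaks. The wild-type libraries with and without T3 thus overlapped, and all 3 libraries of TRαKO with T3 lay above every other library. Over all 9867 regions the same medians averaged 1.95 CPM in TRαKO with T3, 1.38 in untreated TRαKO, 1.45 in TRβKO with T3, 1.52 in untreated TRβKO, 1.78 in wild type with T3 and 1.74 in untreated wild type.

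**Figure D1:**
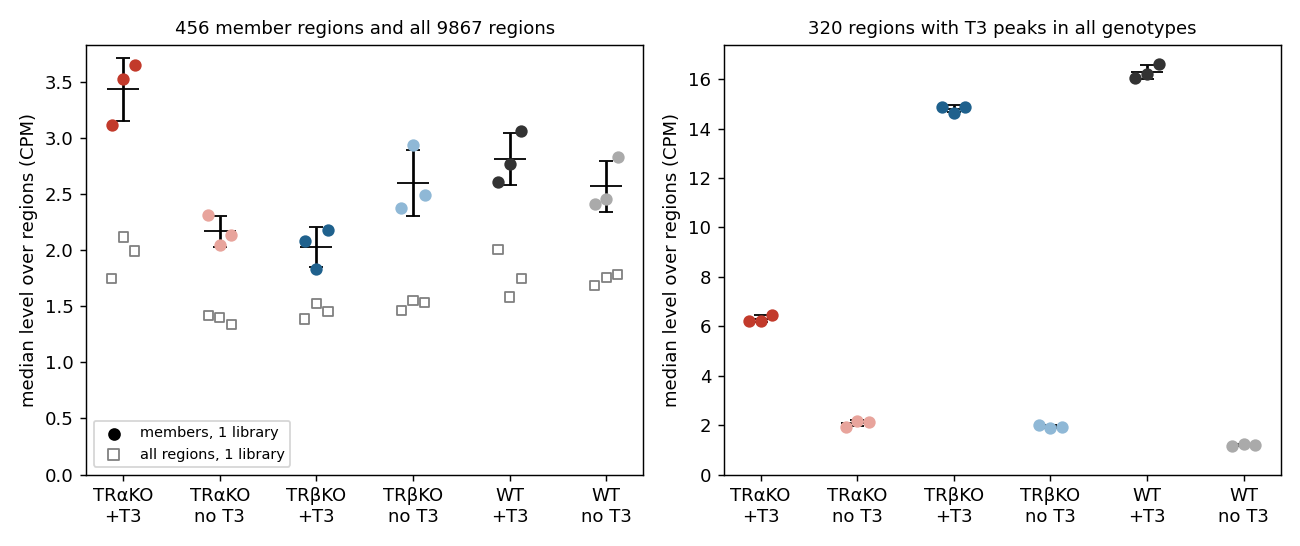
Left, median level in CPM over the 456 members (filled points, 1 per library, with mean and SD of 3) and over all 9867 regions (open squares) in the 6 groups. Right, the same over the 320 regions with peaks in all 3 genotypes with T3, on its own axis: the members stay between 1.83 and 3.65 CPM in all 18 libraries.

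The contrast with the 320 regions that had peaks with T3 in all 3 genotypes was wide. Their median library level averaged 6.30 CPM in TRαKO with T3 and 2.07 untreated, 14.8 CPM in TRβKO with T3 and 1.94 untreated, and 16.3 CPM in wild type with T3 and 1.2 untreated. Both sets were chosen by their peaks, so these values describe the choice. Per length the median member had 4.79 CPM per kb over all 18 libraries, against 12.7 for those 320 regions and 3.68 for all regions.

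As a share of tags, members took 0.211 ± 0.0150 reads per 100 tags in TRαKO with T3 and 0.168 ± 0.0034 in untreated TRαKO. The share was 0.144 ± 0.0112 in TRβKO with T3 and 0.177 ± 0.0098 in untreated TRβKO, and 0.182 ± 0.0082 in wild type with T3 and 0.171 ± 0.0068 in untreated wild type (SD, n = 3 each). TRαKO with T3 was highest and TRβKO with T3 lowest, an order that the rule in part chose. With tags counted before the duplicate filter these groups kept their places, at 0.191 and 0.121. The wild-type order then reversed, with 0.143 with T3 and 0.166 untreated. Over all regions the mean shares were 2.34 in TRαKO with T3, 1.67 in untreated TRαKO, 2.43 in TRβKO with T3 and 1.81 in untreated TRβKO. In wild type they were 2.90 with T3 and 1.98 untreated.

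The groups differed widely in peak calls at the members, and the reads behind the calls differed alongside. A peak overlapped 297, 404 and 363 of the 456 members in TRαKO with T3, 115, 133 and 97 in untreated TRαKO, 7, 9 and 20 in TRβKO with T3, 71, 169 and 94 in untreated TRβKO, 9, 16 and 14 in wild type with T3 and 320, 423 and 392 in untreated wild type. The median member held 25, 25 and 22 reads in TRαKO with T3, but 6, 6 and 6 in TRβKO with T3. In wild type it held 6.5, 7 and 7 reads with T3 and 33, 42 and 35 untreated.

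Regions that did have a peak set a scale for these reads. Of all regions with a peak in a library, 95% held at least 14 to 15 reads in TRβKO with T3 and 13 to 14 in wild type with T3, above the median member there. In TRαKO with T3 the same mark lay at 13 to 16 reads and in untreated wild type at 19 to 23, below the median member. Expressed per tag it was 5.14 to 6.12 CPM in wild type with T3 and 1.34 to 1.54 CPM in untreated wild type. The mean of the members' library medians was 2.81 ± 0.230 CPM in wild type with T3, below its mark, and 2.57 ± 0.231 CPM in untreated wild type, above its own. The part of depth in the missing peaks was not tested.

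Some members without a peak passed that mark. In wild type with T3, 89, 93 and 75 members held at least that many reads, of which 81, 79 and 63 had no peak. In TRβKO with T3 the numbers were 59, 77 and 71, of which 54, 70 and 54 had none. The members past the mark without a peak were wide, with medians of 941 to 980 bp in wild type with T3 and 941 to 1060 bp in TRβKO with T3, against 544 bp over all members. Those past the mark with a peak had medians of 619.5 to 918.5 bp in wild type with T3 and 625 to 1044 bp in TRβKO with T3. The mark was in reads, not in reads per length. MACS, the authors' peak caller, compared each place with its surroundings within 10 kb in the same library, and the part of this local background in the missing peaks was not tested.

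Where members had peaks, their strength is given here by the authors' own values, without those of other peaks beside them. The median fold enrichment at member peaks was 4.81 to 6.20 in the 18 libraries and the median -log10 q was 2.76 to 5.57. Of the members, 92 had a peak in 3 of 3 libraries of both groups that had to have one. With only peaks of -log10 q of at least 5 the rule gave 101 regions, 95 of them members.

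Values just inside and just outside the rule overlapped in part. The 160 members with peaks in just 2 of 3 libraries of both groups, and none in the T3 groups of wild type and TRβKO, had medians of 2.81 CPM in TRαKO with T3, 1.73 in untreated TRαKO, 1.62 in TRβKO with T3, 2.11 in untreated TRβKO, 2.2 in wild type with T3 and 2.04 in untreated wild type. Just outside, 754 regions that missed the rule only by 1 of 3 libraries of TRαKO with T3 had 2.51 CPM in that group and 2.49 in untreated wild type. Another 361, with a peak in 1 of 3 libraries of untreated wild type, had 2.72 and 1.65 CPM in those groups. The 13 regions kept out by a second peak library in wild type or TRβKO with T3 stood higher, at 6.15 CPM in TRβKO with T3 and 9.78 in wild type with T3.

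The median log2 difference with T3 was 0.54 in TRαKO (0.46 over all tested regions), -0.33 in TRβKO (-0.16) and 0.08 in wild type (0.02). For the 320 regions with peaks in all genotypes with T3 it was 1.66, 2.94 and 3.8. These contrasts contain groups of the rule, so they carry no test. A 2-fold higher level with T3 was fitted at 74 of 455 members in TRαKO, with 21.2% of all tested regions past that fold, and a 2-fold lower one at 0, with 1.53%. In TRβKO 8 members were 2-fold higher and 70 lower, with 14.4% and 17.5% of all regions, and in wild type 13 and 25, with 13.6% and 11.9%. Under TMM scaling, which sets most regions equal, the members' median was 0.15 in TRαKO and -0.09 in wild type, so the sign in wild type depends on the scaling. With every library thinned to the depth of the shallowest of the 18, the filter kept 1948 regions and 216 members. The members' median was then 0.26 in TRαKO (0.78 over those regions), -0.23 in TRβKO (0.68) and 0.15 in wild type (0.91). The filter kept these regions by their reads after thinning, so both medians cover other sets than those above. How members stand against all regions cannot be read from them.

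**Figure D2:**
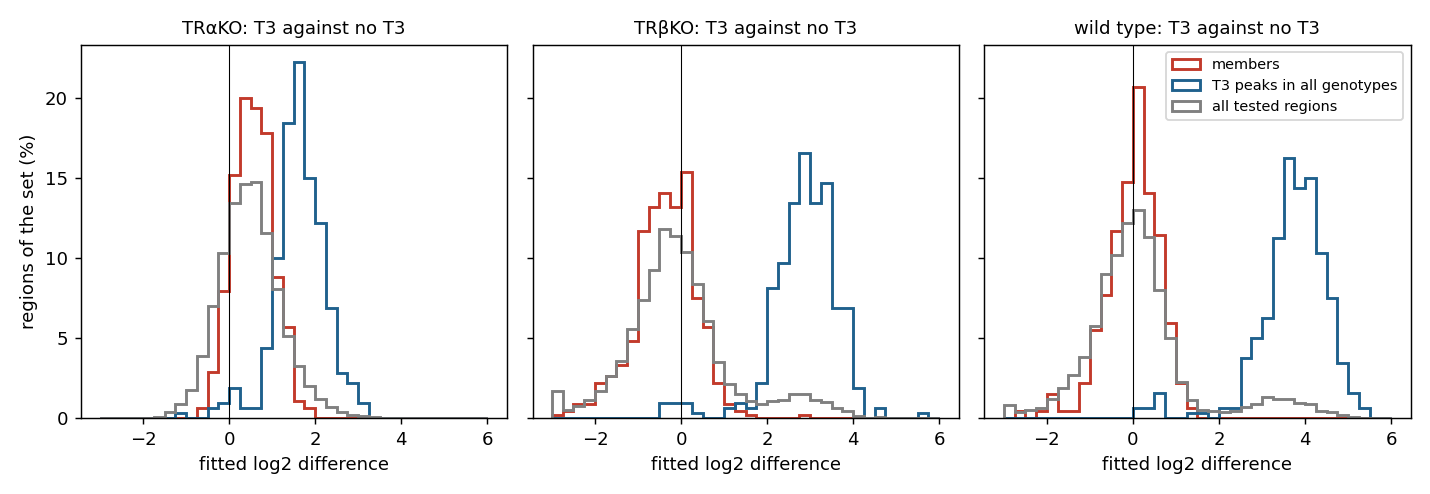
Distribution of the fitted log2 difference, T3 against no T3, in TRαKO, TRβKO and wild type, as a share (%) of the members (red), of the 320 regions with T3 peaks in all genotypes (blue) and of all tested regions (grey). The medians of the members are 0.54, -0.33 and 0.08 and those of all tested regions 0.46, -0.16 and 0.02.

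With T3, members were higher in TRαKO than in TRβKO by a median log2 of 0.71 (0.39 over all regions), and 153 of 455 were 2-fold higher and 0 lower, with 24.5% and 8.06% of all regions past those folds. TRαKO with T3 exceeded wild type with T3 by a median of 0.29 (0.04). Here 65 members were 2-fold higher and 2 lower, with 13.3% and 13.6% of all regions. TRβKO with T3 lay below wild type with T3 by a median of -0.35 (-0.30), or -0.06 (-0.01) under TMM scaling, with 23 members 2-fold higher and 116 lower, and 8.22% and 25.7% of all regions past those folds. Without T3 the members' medians lay closer together, at -0.20 (-0.28) for TRαKO over wild type and 0.02 (-0.18) for TRβKO over wild type, but the first was 0.12 under TMM scaling and the second -0.13 with all tags as library size. In the thinned libraries the members' medians were 0.60 (-0.27 over the regions kept) for TRαKO over TRβKO with T3, 0.22 (-0.68) for TRαKO over wild type with T3, -0.44 (-0.29) for TRβKO over wild type with T3, 0.02 (0.10) for TRαKO over wild type untreated and -0.08 (0.10) for TRβKO over wild type untreated. For TRαKO over wild type untreated 4 members were 2-fold higher and 21 lower, with 3.92% and 12.7% of all regions, and for TRβKO over wild type untreated 6 and 20, with 7.47% and 15.5%. The rule asked for peaks in TRαKO with T3 and for few in the other 2 groups with T3. It also asked for peaks in untreated wild type. The directions with T3 and those against untreated wild type were thus in part chosen. Over the 6 group means the highest was 2.28 times the lowest for the median member, against 2.81 for all regions and 16.6 for the 320 regions. For 156 members (34.2%) all 6 means lay within 2-fold, against 17.7% of all regions. The rule left out regions with repeated peaks in wild type or TRβKO with T3, so this range was in part chosen. Members also held more reads than most regions, and the part of this in their range was not tested.

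The untreated knockouts show what the members did where the rule did not look. A peak was found in at least 2 of 3 libraries at 98 members (21.5%) in untreated TRαKO, against 2.94% of all regions, and at 80 (17.5%) in untreated TRβKO, against 3.35%. The 98 made up 33.8% of the 290 regions with such peaks in untreated TRαKO, and the 80 made up 24.2% of 331 in untreated TRβKO. Both groups had peaks at 38 members (8.33%, against 0.811% of all regions). None of the 6 libraries had a peak at 149 members (32.7%, against 69.8%). Members stood above other regions in level and width, and the part of these in their peak share was not tested. With 1 library of an untreated knockout left out, a peak was asked for in both others, so these numbers could only fall. The 98 became 59, 55 and 72 without replicates 1, 2 and 3, and the 290 over all regions 161, 143 and 196. The 80 became 53, 31 and 46, and the 331 over all regions 198, 106 and 173.

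Peaks and levels in the untreated knockouts came from the same libraries, so more signal at members with more peaks was built in. In untreated TRαKO the 253 members with no peak had a median of 1.70 CPM, 105 with a peak in 1 library 2.52, 54 with 2 libraries 4.84 and 44 with all 3 libraries 8.44 CPM. In untreated TRβKO the medians were 2.03, 2.68, 3.34 and 9.55 CPM over 227, 149, 55 and 25 members. Median width ran alongside in TRαKO, at 486, 564, 731 and 1038.5 bp. In TRβKO it was 526, 536, 553 and 980 bp, and so changed little up to 2 libraries.

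The strongest members, chosen here after their values were seen, lay mostly at genes with LOC placeholder names or away from genes. Of 25 members with a mean of at least 10 CPM over the 18 libraries, 23 lay at such genes or had no gene within 10 kb, 22 were wider than 1 kb and 23 had peaks in at least 2 libraries of an untreated knockout. The same shares over all regions of that level were not taken, so these counts do not set members apart from other strong regions. By contrast, 383 members (84.0%) stayed under 5 CPM. The region on chromosome 1 from 212275325 to 212277081, inside LOC101733468, had 47.4, 46.4 and 44.1 CPM in TRαKO with T3, 42.8, 37.9 and 38 in untreated TRαKO, 39.1, 29.3 and 33.7 in TRβKO with T3, 34.9, 45.4 and 38.7 in untreated TRβKO, 26.9, 38.7 and 27.6 in wild type with T3 and 39.4, 36.0 and 38.8 in untreated wild type. TRαKO with T3 was highest on average but overlapped untreated TRβKO, and the other 5 groups overlapped one another. It had no peak in any of the 6 libraries of wild type and TRβKO with T3. A second member of the same gene starts at 212272427 and had 41.9 ± 2.82 CPM in TRαKO with T3 and 33.5 ± 3.43 in untreated wild type.

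At the start of chromosome 10, 3 members lay between 2798 and 15716 at the lncRNA gene LOC101731736, with a peak in 1 of the 6 T3 libraries of wild type and TRβKO at 1 of them. Per length these were the highest of all members, at 36.2, 33.4 and 28.4 CPM per kb. The member from 14372 to 15716 had 43.6 ± 7.13 CPM in TRαKO with T3, 47.2 ± 0.72 in untreated TRαKO, 45.4 ± 3.97 in TRβKO with T3, 56.6 ± 7.78 in untreated TRβKO, 41.0 ± 4.24 in wild type with T3 and 35.8 ± 1.44 in untreated wild type. The member from 2798 to 4287 was highest in untreated TRβKO, at 61.2, 59.3 and 57.3 CPM, against 33.6, 30.5 and 32.9 in untreated wild type, and those groups did not overlap. Regions in the first 100 kb of a chromosome made up 1.75% of members and 0.326% of all regions.

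A wide member of 3355 bp inside LOC116409474 on chromosome 3 had 44.1 ± 6.39 CPM in TRαKO with T3, 39.6 ± 2.45 in untreated TRαKO, 19.9 ± 2.79 in TRβKO with T3, 33.7 ± 3.40 in untreated TRβKO, 30.1 ± 5.06 in wild type with T3 and 29.7 ± 1.73 in untreated wild type. The product of none of these LOC genes is named in the annotation used.

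Untreated TRαKO against untreated TRβKO asked whether signal differed with the receptor that remained, in the absence of added hormone. Of 455 tested members 12 had an adjusted p under 0.05 by edgeR's two-sided quasi-likelihood test, with Benjamini-Hochberg adjustment over 9342 regions, 6 higher and 6 lower in TRαKO. That is 2.64% of members, against 0.621% of all tested regions (0.214% higher and 0.407% lower). At an unadjusted p under 0.05 there were 70 members (15.4%), against 10.2%. Members had more reads than most regions. Among the 1352 tested regions at or above the members' median level of 2.36 CPM in the untreated knockouts, 40 (2.96%) were called, and among the 228 members in that range 9 (3.95%). This level was chosen after the data were seen. A 2-fold higher level in TRαKO was fitted at 13 members and a 2-fold lower one at 29, with 6.04% and 8.2% of all regions past those folds.

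**Figure D3:**
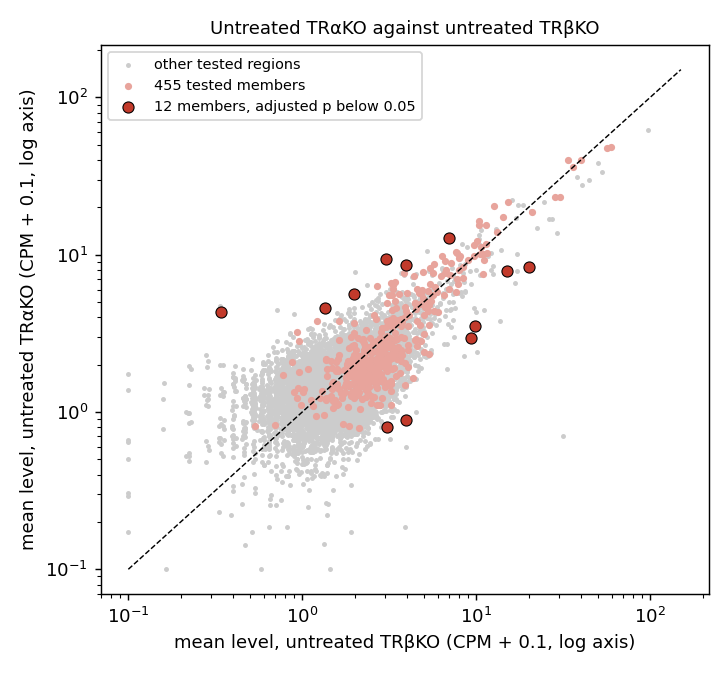
Mean level in untreated TRαKO against mean level in untreated TRβKO (CPM + 0.1, both axes log) for tested regions, with 455 members in pink and the 12 called members in dark red. Most members lie near the line of equality, and 6 called members lie on each side of it.

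The number of calls fell whichever of the 6 libraries was left out. It was 6 without replicate 1, 2 or 3 of untreated TRαKO, and 9, 7 and 6 without replicates 1, 2 and 3 of untreated TRβKO. Calls over all regions also fell each time, from 58 to between 35 and 43. TMM scaling, which moved the median of all regions in this contrast from -0.12 to 0.04 (log2), gave 9 higher and 4 lower members, and DESeq2 19 and 4. Across the fits that left out 1 of the 6 libraries, 3 of the 12 members passed each time, and across the other 7 fits 8 of 12 passed wherever an adjusted p was given. DESeq2 gave none for 2 of the 12. None of the 12 changed sign in any of these fits. Genes with a true name were found at 3 of the 12, and the other 9 are described because they were called, after their values were seen.

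The widest difference lay on chromosome 4 from 33440425 to 33440942, with no gene within 10 kb. It had 3.99, 4.31 and 4.27 CPM in untreated TRαKO against 0, 0.345 and 0.383 CPM in untreated TRβKO, on 103 and 4 reads. The 2 groups were far apart, and the fitted log2 difference was 4.01 ± 0.61 (SE, adjusted p = 7.15e-06, edgeR). Peaks were called in 3 of 3 libraries of untreated TRαKO and in 0 of untreated TRβKO. With T3 it had 3.74, 3.81 and 3.32 CPM in TRαKO, 2.77, 1.83 and 1.45 CPM in TRβKO and 1.2, 2.37 and 3.94 CPM in wild type, against 2.34, 2.40 and 2.99 CPM in untreated wild type. Untreated TRβKO was the group that stood apart from the other 5. The call held in every fit tried.

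The other calls that held in every fit were lower in untreated TRαKO, both near 118 Mb on chromosome 8. The member from 118139275 to 118140441, 512 bp from the pseudogene LOC116407340, had 7.72, 7.0 and 10.1 CPM in untreated TRαKO against 19.4, 22.4 and 18.4 CPM in untreated TRβKO. It fell by 1.28 ± 0.21 (log2, SE) in TRαKO (adjusted p = 3.75e-05, edgeR). In TRβKO with T3 it had 13.5, 14.6 and 9.80 CPM and in untreated wild type 4.46, 5.38 and 5.50, so untreated TRβKO lay above both. The member from 118268618 to 118269549, inside LOC101732984, had 3.34, 3.23 and 2.0 CPM in untreated TRαKO against 6.58, 10.4 and 10.9 CPM in untreated TRβKO (-1.68 ± 0.32, adjusted p = 0.000543, edgeR).

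Between 118106137 and 118269549 lay 5 members, these 2 among them. Joined at gaps of up to 20 kb, 3 of the 5 formed a cluster from 118139275 to 118157390. The call at 118139275 belongs to it, and that at 118268618 lies outside it. Other than these 2 calls, none of the 5 passed the test. The member near the pseudogene LOC116407328 had 8.11 ± 1.22 CPM in untreated TRαKO and 5.36 ± 0.671 in untreated TRβKO (adjusted p = 0.344, edgeR). Members beside the snRNA genes LOC116407363 and LOC116407367 had 5.91 ± 1.0 and 4.69 ± 1.37 CPM in untreated TRαKO, and 4.45 ± 2.11 and 5.27 ± 0.478 CPM in untreated TRβKO (adjusted p = 0.713 and 0.908, edgeR).

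Among named genes, 3 had a called member, each lower in untreated TRαKO. The member inside epb41l4b, which encodes a band 4.1 family protein that links membrane and cytoskeleton, had 4.50, 4.63 and 1.2 CPM in untreated TRαKO against 10.4, 9.32 and 9.39 CPM in untreated TRβKO (-1.47 ± 0.32, adjusted p = 0.00677, edgeR). It had a peak in 2 libraries of TRαKO and in 3 of TRβKO. The call was lost without replicate 3 of untreated TRαKO, the lowest library. Wild type was low at this region, at 1.61, 4.35 and 1.75 CPM with T3 and 1.39, 2.22 and 2.43 untreated.

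The member 5279 bp from kcnt2l, annotated as like the potassium channel gene KCNT2, had 9.0, 7.0 and 7.21 CPM in untreated TRαKO against 15.5, 15.7 and 13.4 CPM in untreated TRβKO (-0.95 ± 0.23, adjusted p = 0.0175, edgeR). TRβKO with T3 was as high, at 15.9, 12.5 and 19.2 CPM. The call was lost under TMM scaling and without replicates 2 or 3 of untreated TRαKO or replicates 1 or 2 of untreated TRβKO. Near cacng5, an auxiliary subunit gene of calcium channels and glutamate receptors in mammals, a member on chromosome 10 at 51011870 had 0.257, 1.18 and 0.935 CPM in untreated TRαKO against 3.66, 3.62 and 4.21 CPM in untreated TRβKO (-2.22 ± 0.53, adjusted p = 0.0167, edgeR). It was lost without any of 5 libraries, all but replicate 2 of untreated TRαKO, and DESeq2 gave no adjusted p for it. The second member of cacng5, inside the gene at 51021286, did not pass, with 3.69 ± 0.829 CPM in untreated TRαKO and 2.97 ± 0.681 in untreated TRβKO (adjusted p = 0.856, edgeR).

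**Figure D4:**
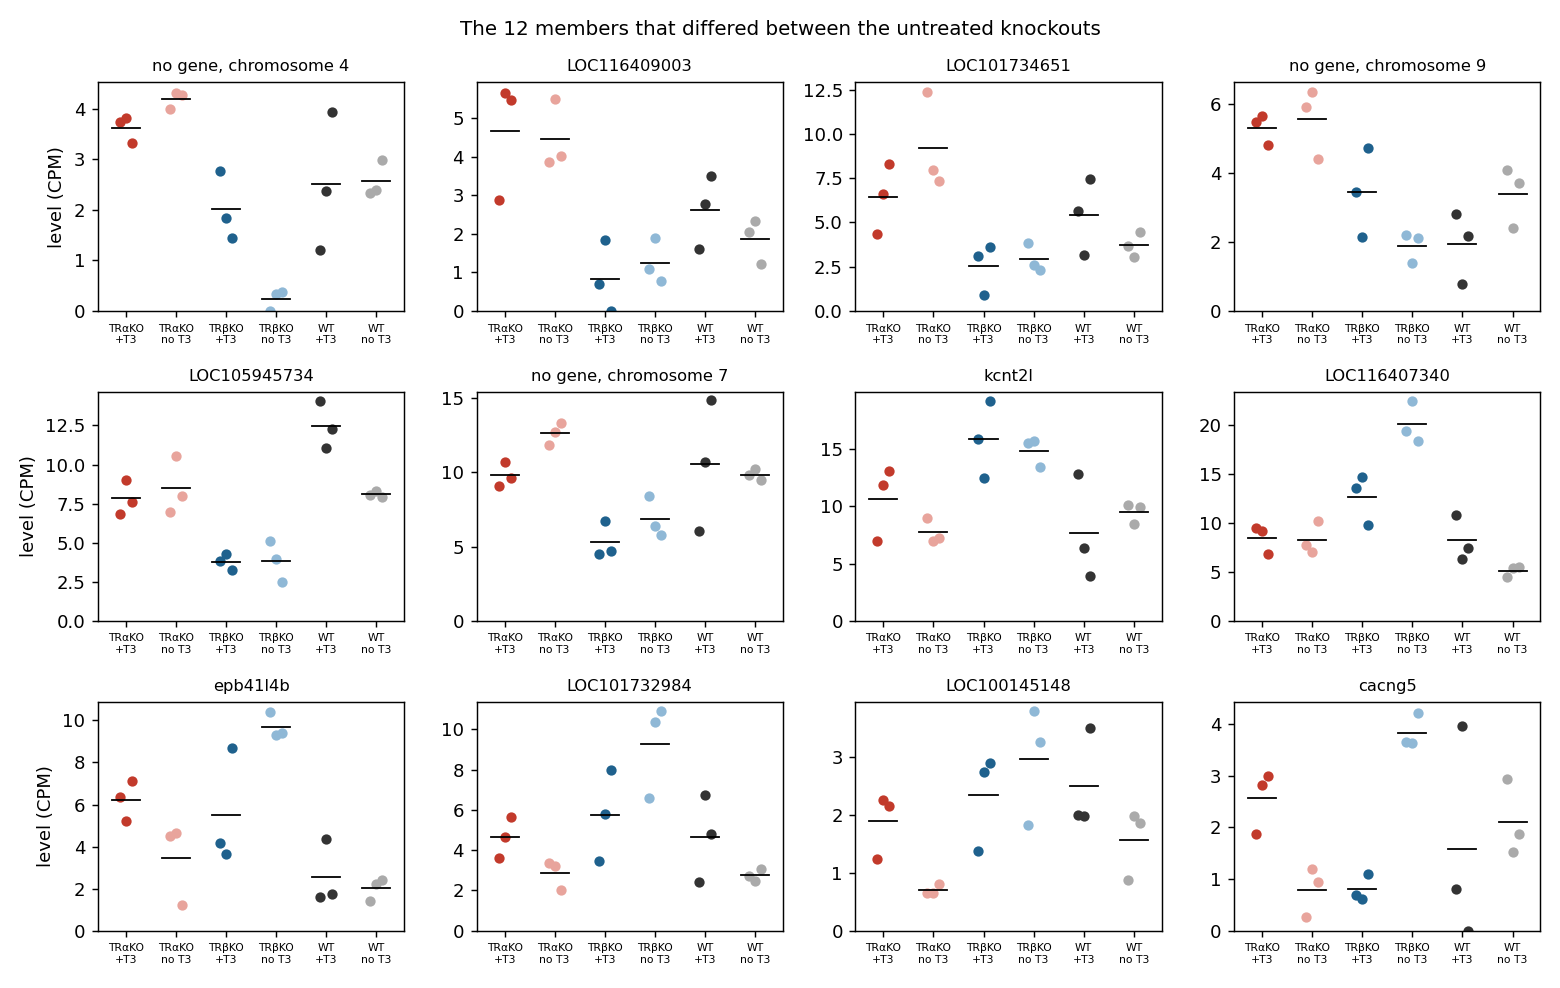
Level in CPM of the 12 called members in all 18 libraries (points) with group means (lines), 1 panel per member, each with its own axis from 0. By rows, the first 6 panels are higher in untreated TRαKO and the last 6 lower, from 4.01 for the first panel to -2.22 for the last (log2).

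The remaining 6 calls lost significance without at least 1 library. LOC101734651 on chromosome 4 had a member 4754 bp away with 12.3, 7.97 and 7.34 CPM in untreated TRαKO against 3.84, 2.59 and 2.3 CPM in untreated TRβKO (1.66 ± 0.33, adjusted p = 0.00136, edgeR), lost only without replicate 1 of untreated TRαKO, the highest. Inside LOC105945734, on the same chromosome, a member had 8.50 ± 1.86 CPM in untreated TRαKO and 3.86 ± 1.32 in untreated TRβKO (adjusted p = 0.0167, edgeR), lost without replicate 2 of untreated TRαKO or replicates 2 or 3 of untreated TRβKO. Beside LOC116409003, a pseudogene, a member had 3.86, 5.49 and 4.01 CPM in untreated TRαKO, with peaks in 3 of 3 libraries, against 1.10, 1.90 and 0.766 CPM in untreated TRβKO with none. It passed (adjusted p = 0.0353, edgeR) but was lost without any library other than replicate 2 of untreated TRβKO.

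The last 3 were of the same kind. A member with no gene on chromosome 9 at 9915866 had 5.56 ± 1.02 CPM in untreated TRαKO and 1.89 ± 0.447 in untreated TRβKO (adjusted p = 0.0232, edgeR), lost without any library other than replicate 3 of untreated TRαKO and after thinning to equal depth. On chromosome 7 at 70572456 another had 12.6 ± 0.762 and 6.85 ± 1.39 CPM in those groups (adjusted p = 0.0471, edgeR), lost without any library other than replicate 1 of untreated TRβKO, with no filter on low counts, after thinning and in 1 further fit. Inside LOC100145148 a member had 0.697 ± 0.0903 and 2.96 ± 1.02 CPM (adjusted p = 0.0411, edgeR), on 17 and 49 reads, lost without any library other than replicate 1 of untreated TRβKO and under TMM or thinning, with no adjusted p from DESeq2.

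Members lay both inside genes and between them. A gene body was overlapped by 219 members (48.0%), against 53.8% of the 9817 regions on chromosomes and 62.2% of the 320 regions with T3 peaks in all genotypes. A gene lay within 10 kb of 299 members (65.6%), against 71.0% and 83.8%. Gene ends were within 1 kb of 54 members (11.8%), against 11.4% and 20.6%. Of the members with a gene, 34.8% lay at a LOC placeholder, against 25.4% and 13.1%. Median width was 544 bp, against 453 bp over all regions and 539 bp over the 320, and 12.5% of members exceeded 1 kb, against 1.92% and 2.5%. Other regions had peaks in at least 2 libraries of untreated wild type but of no T3 group. Their median width was 487 bp, and 30.7% of those with a gene lay at a LOC placeholder. By biotype 262 lay at protein-coding genes, 25 at lncRNA genes, 7 at pseudogenes, 3 at tRNA genes and 2 at snRNA genes. Each of the 10 chromosomes had members, 3.91% of the regions on chromosome 9 to 5.88% on chromosome 10. Exon and intron positions were not used here, and no base sequence was at hand for TR elements to be sought.

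At named genes 195 members lay at 189 genes, whose roles below are those known in vertebrates, mostly mammals. The strongest was inside nudcd1, with 16.1, 14.5 and 21.1 CPM in TRαKO with T3, 22.1, 19.5 and 23.4 in untreated TRαKO, 12.5, 20.4 and 11.6 in TRβKO with T3, 14.6, 16.9 and 13.6 in untreated TRβKO, 16.1, 14.2 and 10.9 in wild type with T3 and 8.99, 8.65 and 8.17 in untreated wild type. Untreated wild type was lowest there without overlap, and the untreated knockouts did not differ beyond the threshold (0.52 ± 0.18, adjusted p = 0.245, edgeR). It had a peak in all 6 untreated knockout libraries.

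The following genes were named by level or by holding 3 members, and form no list that was tested. The neuronal adhesion gene lsamp held 3 members over a stretch of chromosome 2 from 4529624 to 5627076, with 3.89 ± 0.657, 2.82 ± 1.58 and 3.92 ± 0.294 CPM in TRαKO with T3 and 3.81 ± 1.13, 2.69 ± 0.275 and 3.00 ± 0.954 in untreated wild type. The member in nxph3, which encodes a secreted protein, had 8.19 ± 0.547 CPM in TRαKO with T3 and 7.42 ± 1.19 in untreated wild type. The glutamate receptor gene grm4 had 6.38 ± 1.75 and 3.87 ± 0.0734 CPM in those groups, and sorcs1, a sorting receptor gene, 6.32 ± 1.35 and 6.70 ± 1.34.

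Further genes were named by level or by peaks in the untreated knockouts. At slc2a4, the insulin-responsive glucose transporter gene, the member had 6.57 ± 0.912 CPM in TRαKO with T3, 5.29 ± 2.08 in TRβKO with T3, 5.35 ± 0.296 in wild type with T3 and 7.83 ± 1.03 in untreated wild type. At wipi2, which acts in autophagosome formation, it had 6.59 ± 0.281 CPM in untreated TRαKO and 3.31 ± 1.03 in untreated TRβKO, with no overlap, but did not pass (0.98 ± 0.31, adjusted p = 0.174, edgeR). At jmjd7-pla2g4b, a read-through of a hydroxylase and a phospholipase gene in humans, the values were 6.30 ± 0.680 and 3.24 ± 1.55 CPM (adjusted p = 0.146, edgeR), and wild type stood above, at 13.6 ± 1.48 with T3 and 10.2 ± 1.85 untreated. The tRNA-modifying Elongator gene elp3 had peaks in 3 of 3 libraries of untreated TRβKO and 0 of untreated TRαKO, with 3.01 ± 0.730 CPM in TRαKO and 4.89 ± 1.29 in TRβKO (adjusted p = 0.491, edgeR). The ribosomal RNA processing gene utp6 had peaks in 2 of 3 libraries of both, at 3.94 ± 0.433 and 3.79 ± 0.805 CPM.

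Other named genes gave a similar picture. The member in heca had 6.87 ± 2.74 CPM in TRαKO with T3 and 8.73 ± 0.582 in untreated wild type, that near fam210b 5.91 ± 0.850 and 7.13 ± 0.271, and that near pwp1 5.87 ± 0.560 and 5.48 ± 0.750. Near ovos2, which encodes a protease inhibitor, TRβKO with T3 was lowest, at 2.42, 0.610 and 3.27 CPM, against 4.2, 6.56 and 7.85 CPM in untreated TRβKO. The developmental transcription factor gene pax7, the RNA-binding protein gene celf4 and the adhesion receptor gene adgrl3 each held 2 members, none of which was called between the untreated knockouts.

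The gene lists covered T3 response, intestinal remodelling and other roles, such as clock, stress and translation. Together they held members at about the share of all regions. Of 838 listed genes 15 had a member, 15 regions in all, which is 3.29% of members against 2.91% of all regions and 14.7% of the 320 regions with T3 peaks in all genotypes. Members made up 4.62% of all regions, the base for the counts of single lists that follow. Direct T3 response genes had 27 counted regions, of which 0 were members and 14 belonged to the 320. Hormone transport and metabolism had 0 of 8, differentiated epithelium 0 of 19, stem and progenitor cells 0 of 7, mesenchyme 0 of 8, cell cycle 0 of 9, Notch 0 of 2, translation machinery 0 of 4, splicing and RNA binding 0 of 3, and sugar and lipid metabolism 0 of 23. No listed member was called between the untreated knockouts.

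Receptors and chromatin enzymes gave 4 members. The androgen receptor gene ar, the only one of 25 regions at nuclear receptor genes, had 3.03 ± 1.22 CPM in TRαKO with T3, 1.63 ± 0.861 in TRβKO with T3, 2.52 ± 1.65 in wild type with T3 and 1.75 ± 0.440 in untreated wild type. Coregulator and histone enzyme genes gave 3 of 58. The H3K9 demethylase gene kdm4b had 2.57, 1.40 and 0.801 CPM in untreated TRαKO against 3.29, 3.11 and 3.64 in untreated TRβKO, with no overlap but no call (-1.06 ± 0.45, adjusted p = 0.367, edgeR). The H3K4 demethylase gene kdm5b had 2.54 ± 0.643 CPM in TRαKO with T3 and 2.03 ± 0.283 in untreated wild type, and the H3K4 methyltransferase gene kmt2c 2.42 ± 0.629 and 1.83 ± 0.483.

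Signalling lists gave 4 members, all under 4 CPM in every group mean. The hedgehog coreceptor gene boc had 3.09 ± 1.66 CPM in TRαKO with T3 and 2.18 ± 0.768 in untreated wild type, and the TGF-β type I receptor gene tgfbr1 3.09 ± 0.965 and 2.86 ± 1.18, as 2 of 14 regions of the hedgehog and BMP list. The ligand gene wnt9a had 2.36 ± 0.476 and 2.89 ± 1.39 CPM, and tcf7l2, the transcription factor gene of the WNT pathway, 3.42 ± 1.59 and 1.66 ± 0.369, as 2 of 35 regions of the WNT list.

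Matrix genes gave 3 of 25. The collagen gene col1a2 had 5.74, 4.37 and 6.31 CPM in TRαKO with T3, 3.60, 4.31 and 4.94 in untreated TRαKO, 6.58, 5.79 and 4.72 in TRβKO with T3, 3.29, 9.14 and 4.41 in untreated TRβKO, 8.03, 3.95 and 4.37 in wild type with T3 and 4.75, 5.73 and 5.18 in untreated wild type. All 6 groups overlapped. The membrane-type metalloproteinase gene mmp15 had 3.20 ± 0.640 CPM in TRαKO with T3 and 2.38 ± 0.716 in untreated wild type, and the collagen-binding integrin gene itga1 2.78 ± 0.404 and 2.02 ± 0.504.

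The remaining lists gave 1 or 2 members each. The apoptosis list had diablo, whose product blocks caspase inhibitors (1 of 19), with 3.55 ± 1.08 CPM in TRαKO with T3 and 2.57 ± 0.510 in untreated wild type. The clock list had the repressor gene per1 and the activator gene arntl2 (2 of 15), with 3.31 ± 0.747 and 3.01 ± 0.852 CPM in TRαKO with T3 and 2.71 ± 0.596 and 2.63 ± 0.364 in untreated wild type. The gene per1 is also the 1 member of 16 regions of the immediate early and stress list. At arntl2 TRαKO had 3.01 ± 0.852 CPM with T3 and 1.13 ± 0.453 untreated, and TRβKO 0.781 ± 0.878 with T3 and 2.76 ± 2.03 untreated, opposite differences that were not tested because the rule used both T3 groups. Markers of other cell types gave 1 of 9, the erythroid transcription factor gene gata1, with 4.32 ± 0.883 CPM in TRαKO with T3, 1.46 ± 0.874 in TRβKO with T3, 4.43 ± 3.16 in wild type with T3 and 5.19 ± 1.5 in untreated wild type.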

How the data were processed

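TR binding was measured by ChIP-seq in 18 libraries, 6 groups of 3 by genotype and T3, per the labels. Per the submitters' processing notes, reads were aligned with Bowtie2 2.3.4.1, peaks called with MACS2 2.1.1.20160309 and reads counted with DiffBind, while the file headers name MACS 2.2.7.1. The genome build is not given in the sources used here. The deposited table holds the authors' raw read counts per region, not scaled. Per the file headers, peaks came from each library alone, without a control, at a q-value of 0.05 with 1 tag kept per position. The effective genome size set for these calls was 2700000000 bases, and the part of this setting in the peaks was not tested. The peak lists give the authors' pileup signal at the summit, fold enrichment (the ratio of signal to local background) and -log10 of the p-value and q-value, per the file headers.

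A region had a peak when they shared at least 1 base. Counts were scaled to tags after the duplicate filter. One model of 6 group means was fitted to all 18 libraries in R 4.3.3 with edgeR 4.0.16 (robust quasi-likelihood, limma 3.58.1) after filterByExpr, which kept 9342 regions, and was tested on simulated data. Two-sided p-values were adjusted by Benjamini-Hochberg over the whole table and called under 0.05. DESeq2 1.42.0 was an alternative fit, and Python 3.11.15 with pandas 2.3.3, numpy 2.4.6 and matplotlib 3.10.9 did the rest.

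Genes came from the RefSeq table of UCB_Xtro_10.0: the body overlapped, or else the nearest gene within 10 kb. With it 11.4% of regions lay within 1 kb of a gene end, against 7.07% to 7.83% after shifts of 100 to 2000 kb in either direction. If the files use another build, some gene names could be wrong. The members, gene lists and tests were chosen with earlier results of these data known. Genes were named by level in the untreated knockouts, in TRαKO with T3, in untreated wild type, and in wild type and TRβKO with T3, by calls, by peaks in the untreated knockouts, by membership of a list and by holding 3 members. LOC placeholders did not count as symbols for this, other than for holding 3 members. One gene that this rule named is not reported here.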

Additional observations from a re-analysis of the deposited data

How the results depend on the processing

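The number of members was 101 with only peaks of -log10 q of at least 5 and 341 at 3. It was 92 with peaks in 3 of 3 libraries of both groups that had to have them. With no peak allowed in any library of wild type or TRβKO with T3 it was 387. Without 1 library of a group that had to have peaks, with both others required, it was 204 to 359. Without 1 library of a group that had to lack them, the limit of fewer than 2 libraries stayed. The number of members could then not fall, and it was 460 to 461. At -log10 q of at least 5 the members with peaks in 2 or more untreated libraries numbered 28 in TRαKO and 18 in TRβKO. Over all regions the numbers were 79 and 71. Without single libraries, with a peak asked for in both others, such members numbered 55 to 72 and 31 to 53. Over all regions these numbers were 143 to 196 and 106 to 198. The settings for the untreated libraries were added after the data were seen.

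Regions called between the untreated knockouts numbered 89 with DESeq2 (57 higher, 32 lower), 52 with TMM (28 and 24) and 35 to 43 without single libraries, against 58 (20 and 38). Members called numbered 23 with DESeq2, 20 of 420 with a fit of only the 6 libraries compared (77 of 5488 regions), 20 of 228 when adjusted over regions at or above the members' median level alone (68 of 1352 regions, added after the data were seen) and 6 to 9 without single libraries. The cause of these shifts was not tested. The other alternatives gave 9 to 13. Deviations from the group mean in same-numbered libraries of the untreated knockouts had correlations of 0.00462, 0.00469 and 0.0184. Other groups were not compared, and counting error lowers such correlations, so they do not settle whether the numbers pair libraries. A replicate block gave 52 regions and 11 members, without the member on chromosome 7 at 70572456 (adjusted p = 0.0751, edgeR).

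With a limit of 1 kb, 50.9% of members lay at a gene. Levels and shares of the members moved with the tag total. The order of wild type with and without T3 reversed when tags before the duplicate filter were used. In the T3 groups of TRβKO and wild type the median member held 6 to 7 reads, and the part of this in the missing peaks was not tested. DESeq2 gave no adjusted p for the called members at cacng5 and LOC100145148. Motif searches were not run, since no genome was used here.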
